A study of Mus musculus with 2 samples.

Results

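Nefl, Nefm, Nefh, Ina, Tubb3, Map2, Mapt and Stmn2, 8 genes that encode parts of the neuronal cytoskeleton, were followed across 2 coronal sections of mouse brain after controlled cortical impact (CCI), a model in which a piston deforms the exposed cortex. The genes were taken by name from the probe list, where all 8 were present among 19070 genes.

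Neurofilaments are the intermediate filaments of neurons and set the calibre of large axons. They are built from a light chain (Nefl), a medium chain (Nefm), a heavy chain (Nefh) and alpha-internexin (Ina). Microtubules run beside them: Tubb3 encodes a beta-tubulin typical of neurons, Map2 a microtubule-binding protein found mainly in cell bodies and dendrites, and Mapt the tau protein, found mainly in axons. Stmn2 encodes a tubulin-binding protein of the stathmin family that acts in axon growth and maintenance. In brain injury these proteins are widely used as tissue or fluid markers of axonal and neuronal damage, while the values here are of their transcripts.

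The sections came from male C57Bl6 mice, labelled 3 months of age, which per the study's supplement was their age when injured. They were killed 3 days (1 mouse) and 28 days (1 mouse) after CCI over the right parietal cortex. Per the study's methods, surgery was under ketamine and medetomidine, with buprenorphine and bupivacaine against pain. The methods describe perfusion fixation and paraffin embedding for stained sections of the study's models. For the sections used here they name a thickness of 10 µm and capture on Visium HD. In Visium HD, probe pairs hybridised to transcripts are counted as unique molecular identifiers (UMIs), here in squares of 16 µm. Each time point was 1 section of 1 mouse and no uninjured brain was used here, so time and animal cannot be told apart and no test between groups was possible. The opposite hemisphere of each section served as the reference. A hemisphere opposite to an injury is not an uninjured brain.

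The 3-day section held 121967 bins with a median of 836 UMIs and the 28-day section 105589 bins with a median of 596 UMIs. The injured side lay below array column 130 at 3 days and below column 240 at 28 days, so only 2080 µm of the injured side was captured at 3 days, against 3840 µm at 28 days. The lesion zone was the area on the injured side where 6 phagocyte genes (Cd68, Lyz2, Ctsz, Lgals3, Cd52, Laptm5) took a larger share of UMIs, over windows of 21 by 21 bins, than the 99th percentile of the opposite side. It formed 1 patch of 8609 bins, or 22.0% of the injured side, at 3 days and 1 patch of 14331 bins, or 29.0%, at 28 days. Its reflection across the dividing line was the mirror zone. Levels are counts per 1000000 UMIs of the same area (CPM), with 95% intervals that cover counting error only.

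The 3-day section was not symmetric about the dividing line. A symmetry axis fitted to 10 regional genes passed 384 µm from the line in the 3-day section, against 0 µm in the 28-day section. At 3 days 18.6% of mirror-zone bins carried thalamic markers, against 0% of zone bins, and at 28 days 38.2% against 20.1%. Tiles of the striatum list made up 17.9% of the zone and 0% of the mirror at 3 days, those of the CA3 list 0.418% and 19.2%, those of the CA1 list 16.8% and 0.905%, and those of the choroid plexus list 25.7% and 9.12%. About the fitted axis the mirror held 16.8% striatum, 3.92% CA3 and 5.35% thalamus tiles. It also held 10.4% upper-layer, 12.1% layer 5 and 20.4% layer 6 tiles, against 0%, 2.10% and 6.13% of that zone. CA1 tiles were 0.379% of that mirror and 16.7% of the zone, and choroid plexus tiles 8.12% and 25.5%. Neither axis thus matched the tile names, and the fitted axis had a mean mirrored correlation of 0.47. Names inside the zone rest on marker genes that injury may change too, so a name there need not give the anatomy. The members' ratios over the whole zone at 3 days are therefore given about both axes, and other 3-day values about the dividing line. The part of the mismatch in tile names in the members' values was not tested.

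On the annotated mouse genome (RefSeq, GRCm38.p6, which corresponds to the mm10 build named in the submitters' notes), Nefl lies at chr14:68083863-68089095 and its neighbour Nefm at chr14:68119545-68125004. Nefh lies at chr11:4938754-4948064 and Ina at chr19:47014681-47025327. Tubb3 lies at chr8:123411553-123422015, Map2 at chr1:66175202-66442583, Mapt at chr11:104229409-104332090 and Stmn2 at chr3:8509527-8561604. The table of upstream sequences used here listed 3 of the 8 members, and those of Ina, far below its mirror in the lesion zone at 3 days, and Tubb3, close to it, are shown. Of the 250 bases before each start, on the plus strand, capitals mark GGGCGG on either strand, the core of a GC box.
Ina, chr19:47014431-47014680: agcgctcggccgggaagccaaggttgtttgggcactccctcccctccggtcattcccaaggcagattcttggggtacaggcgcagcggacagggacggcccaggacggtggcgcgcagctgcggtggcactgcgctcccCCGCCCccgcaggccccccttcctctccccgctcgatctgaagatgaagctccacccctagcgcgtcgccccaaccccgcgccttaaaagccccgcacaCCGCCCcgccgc
Tubb3, chr8:123411303-123411552: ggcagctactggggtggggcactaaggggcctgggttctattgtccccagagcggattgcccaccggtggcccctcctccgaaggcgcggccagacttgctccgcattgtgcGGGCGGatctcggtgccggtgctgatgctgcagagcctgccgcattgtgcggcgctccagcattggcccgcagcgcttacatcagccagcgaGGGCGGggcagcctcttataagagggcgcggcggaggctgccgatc
Each window held 2 copies of this motif, which occurred in 32.9% of 27025 mouse promoter windows of that length. The windows were 70.8% and 68.0% G or C, against a median of 52.0% over all windows. The window listed for Map2, chr1:66175079-66175328, ran past the gene start given above, so it was not wholly upstream of that start. It held 5 copies and was 81.2% G or C.

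The opposite side was read for where each transcript lay away from the lesion. Tissue regions were assigned to tiles of 64 µm from marker lists that held none of the 8 genes. Of 12 lists, 8 are described here, a choice made after the tiles were seen. The largest connected patch held from 43.5% to 99.9% of a described list's tiles at 3 days and from 34.6% to 99.6% at 28 days, and from 23.7% to 42.3% and from 18.7% to 29.9% of those of the CA1, dentate gyrus, habenula and choroid plexus lists, so the 2 sets did not part clearly. The CA3 list marked the hippocampal pyramidal area, and the hypothalamus list marked ventral tissue of which 26.0% at 3 days and 21.6% at 28 days lay more than 2000 µm from the dividing line. Probe counts differ with probe efficiency, so levels are compared between regions and not between genes.

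**Figure D1:**
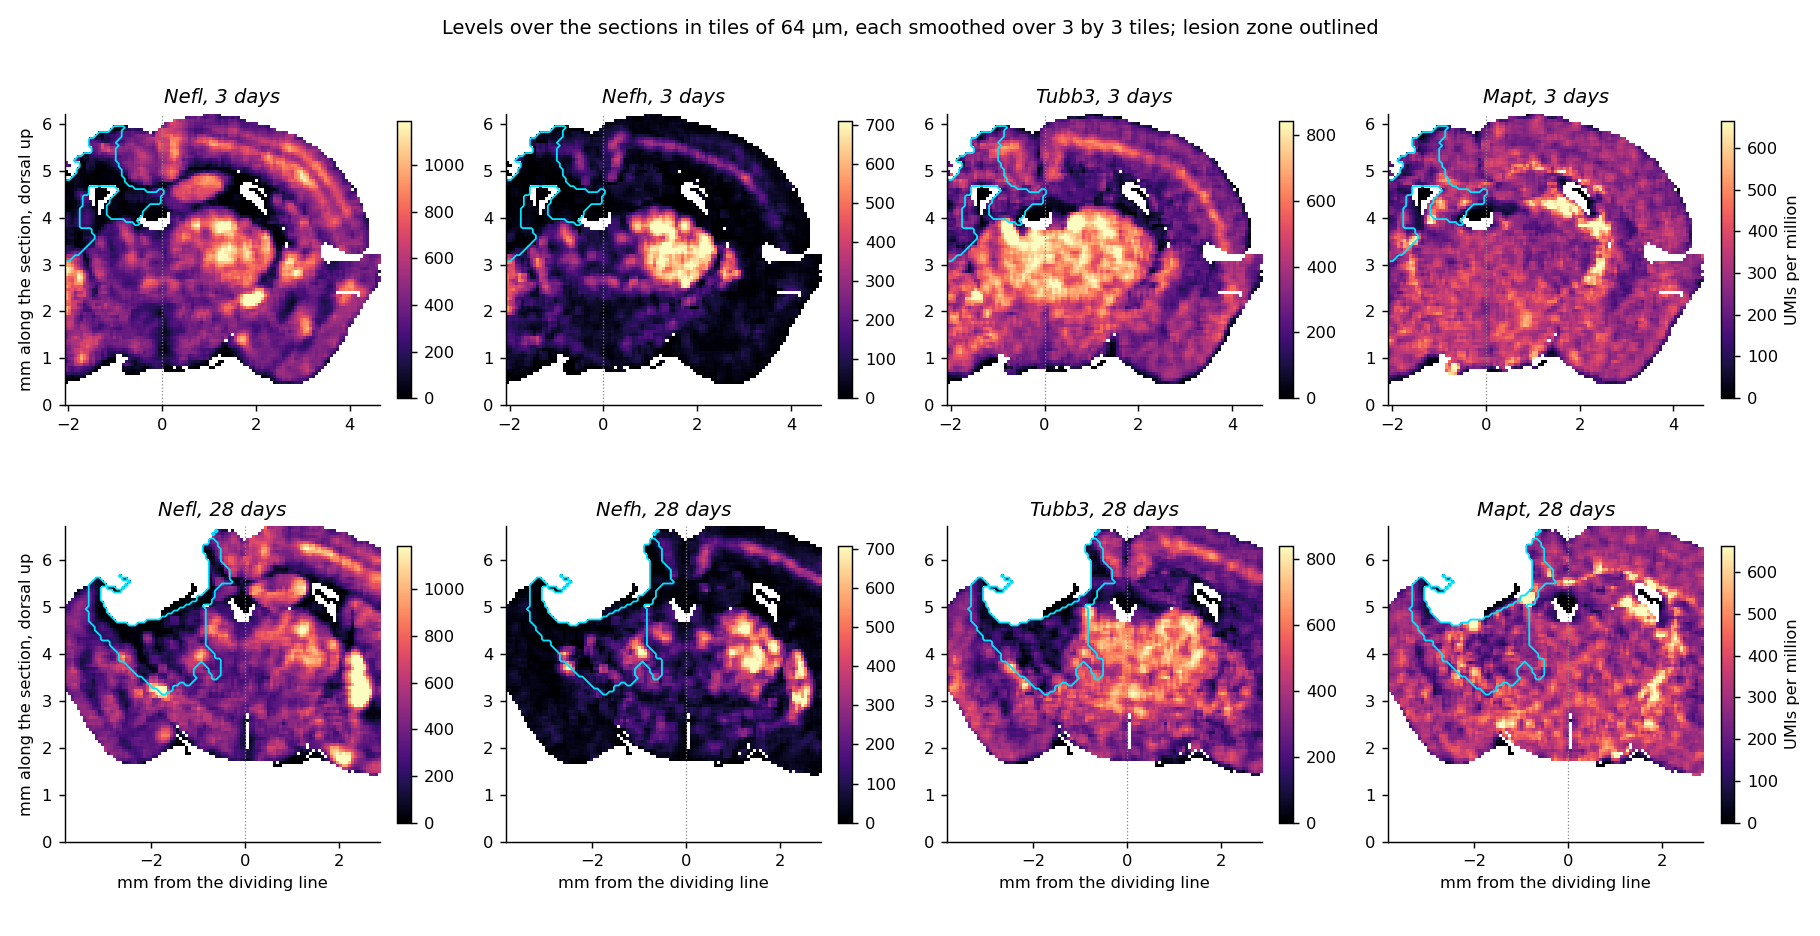
CPM of Nefl, Nefh, Tubb3 and Mapt (colour) in tiles of 64 µm over the 3-day section (top) and the 28-day section (bottom), with the lesion zone outlined in cyan and the dividing line dotted; axes are in mm and dorsal is up. Nefh was brightest in the lateral thalamus of the opposite side and in a thin cortical band, Tubb3 filled the thalamus of both sides, and Mapt was brightest along white matter tracts.

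Nefh, the heavy chain typical of large myelinated projection neurons, had the most restricted pattern of the neurofilament genes. It reached 382 CPM (371 to 394) in thalamic tiles at 3 days and 327 CPM (313 to 341) at 28 days. Cortical layer 5, which holds the large subcortically projecting pyramidal cells, followed with 147 CPM (140 to 154) and 259 CPM (246 to 272). In layer 6 Nefh stood at 34.4 and 50.6 CPM, and the highest region exceeded the lowest by 11.1-fold at 3 days and 6.64-fold at 28 days. The thalamus and layer 5 stood clear of each other and of the other 6 regions described, in both sections. Tiles of the dentate gyrus list, which is not among these, stood between them at 3 days, at 245 CPM (226 to 266).

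Nefm, the medium chain, shared the thalamic and layer 5 levels and differed from Nefh in the striatum. It stood at 310 CPM in the thalamus and 266 CPM in layer 5 at 3 days, an order that was turned at 28 days, with 273 and 382 CPM. The striatum followed with 235 CPM at 3 days and 210 CPM at 28 days. The CA3 area and the hypothalamus list were lowest at 3 days, at 89.7 and 86.8 CPM, with overlapping intervals.

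Nefl, the light chain that all neurofilaments require, was the most evenly spread neurofilament gene, with a span of 1.73-fold over regions at 3 days and 2.40-fold at 28 days. At 3 days the CA3 area (640 CPM), layer 5 (639 CPM) and thalamus (638 CPM) did not differ beyond counting error. At 28 days layer 5 was at 755 CPM and the CA3 area at 712 CPM, with overlapping intervals. Ina, the internexin subunit, was highest in the thalamus, at 378 and 319 CPM, and next in layer 5, at 263 and 305 CPM, a gap within counting error at 28 days.

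The microtubule genes each had a different leading region. Tubb3 was highest in the thalamus (685 CPM at 3 days, 622 CPM at 28 days) and lowest in the striatum (232 and 212 CPM). Map2 ran the other way: it was highest in tiles of the hypothalamus list (874 and 772 CPM), stood between 576 and 724 CPM in all cortical layers, and was only 373 and 370 CPM in the thalamus. Mapt was nearly flat over grey matter, from 237 to 351 CPM at 3 days, and was highest in white matter, at 454 CPM (423 to 487) and 523 CPM (485 to 562). White matter was at the same time the region with the least signal of 10 pan-neuronal genes (among them Snap25, Syt1, Syp, Rbfox3, Eno2, Uchl1, Thy1, Vsnl1 and Elavl4), 3728 CPM at 3 days against 13558 CPM in layer 5. Stmn2 was highest in the CA3 area, with 659 and 523 CPM, though at 28 days the thalamus (507 CPM) was within counting error, and was lowest in the striatum, with 146 and 113 CPM.

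The order of regions was close between the 2 mice. Spearman's rho over the 8 regions lay between 0.83 for Map2 and 0.98 for Tubb3, Mapt and Stmn2. These are descriptions of 2 sections read with the same marker lists.

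**Figure D2:**
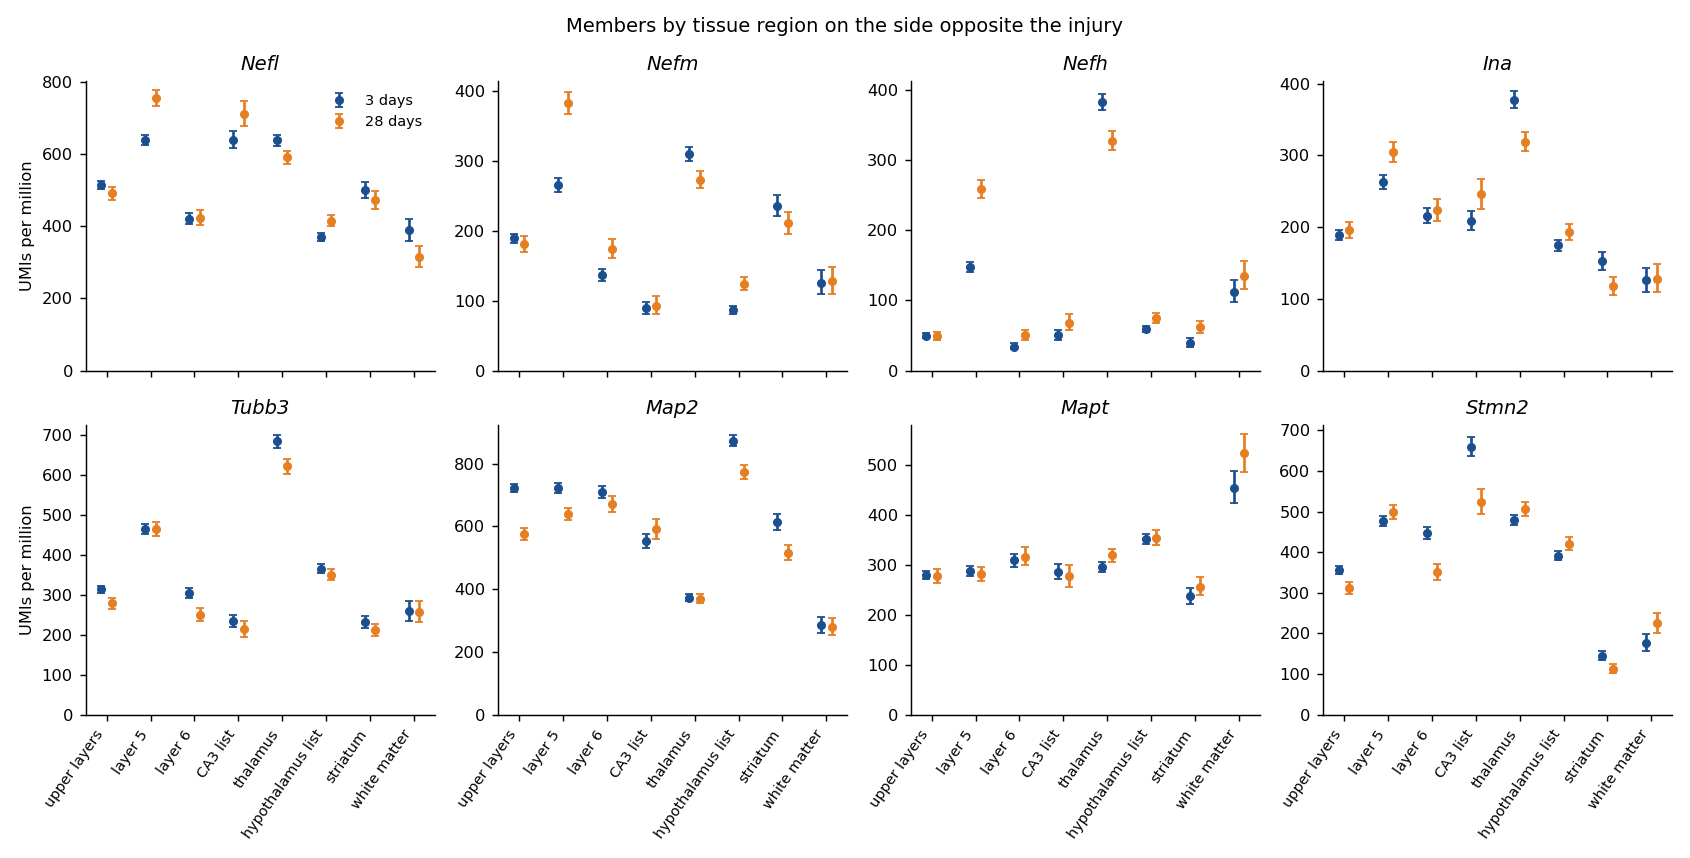
CPM of each gene on the side opposite the injury in 8 tissue regions, at 3 days (blue) and 28 days (orange), 1 section each; bars are 95% counting intervals and each vertical axis starts at 0. Nefh and Tubb3 peaked in the thalamus, Map2 was low there, Mapt peaked in white matter and Stmn2 in the CA3 area.

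Inside the lesion zone all 8 genes were below the mirror zone in both sections, each with a counting interval below 0 on the log2 scale. The median log2 ratio over the 8 genes was -1.18 at 3 days and -1.28 at 28 days, against 0.13 and 0.01 over all genes tested. At 3 days 5 of the 8 were more than 2-fold lower, against 8.27% of 13559 genes, and at 28 days 6 of the 8, against 7.0% of 13627 genes. None was 2-fold higher, against 16.8% and 16.2% of all genes. Of the 10 pan-neuronal genes, 7 were more than 2-fold lower at 3 days and all 10 at 28 days, with median log2 ratios of -1.44 and -1.20. In summed bins, fewer neurons and less RNA per neuron cannot be told apart.

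**Figure D3:**
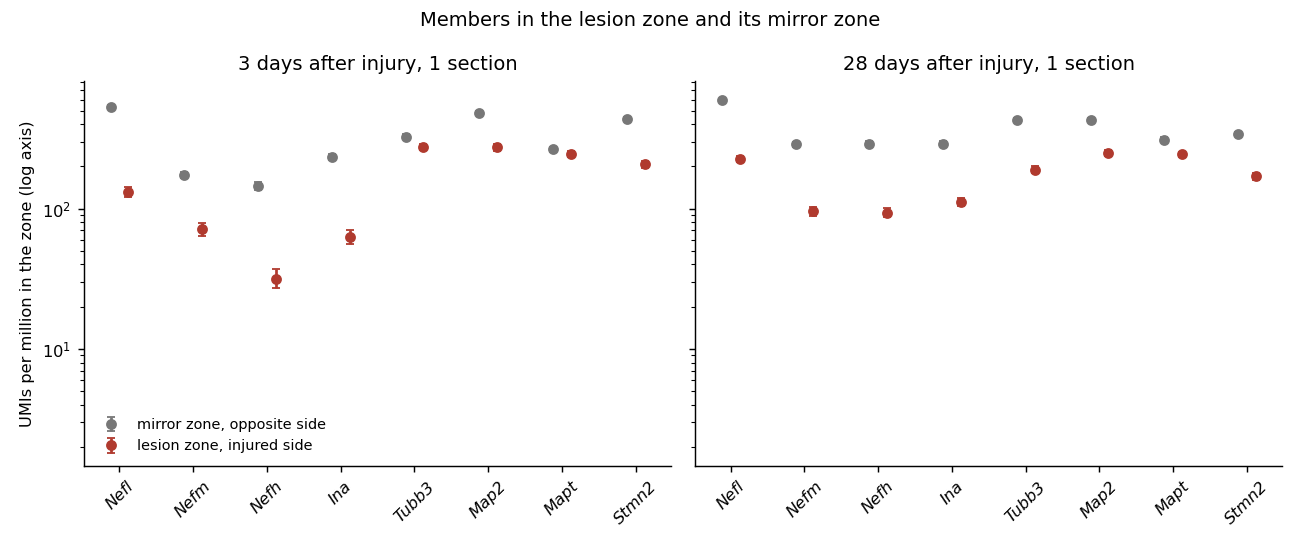
CPM (log axis) of the 8 genes in the lesion zone (red) and the mirror zone (grey) at 3 days (left) and 28 days (right), 1 section each, with 95% counting intervals. The neurofilament genes were separated most, and the Tubb3 and Mapt pairs nearly met at 3 days.

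The neurofilament subunits were lowest. Nefl was 132 CPM (122 to 142) in the zone and 535 CPM (519 to 552) in the mirror at 3 days, 4.06-fold lower (log2 ratio -2.02, interval -2.14 to -1.91). The ratio about the fitted axis was -1.88. The 28-day section had 226 CPM in the zone and 593 CPM in the mirror (log2 ratio -1.39, interval -1.47 to -1.31). Both zone values lay far below the mirror, with no overlap of intervals.

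Nefh was 31.7 CPM against 145 CPM at 3 days (log2 ratio -2.19, interval -2.44 to -1.96) and 93.4 against 290 CPM at 28 days (log2 ratio -1.63, interval -1.76 to -1.51). About the fitted axis the 3-day ratio was -1.53 (-1.79 to -1.28). About that axis the Nefh intervals of the 2 sections overlapped. Against the whole opposite side the 28-day ratio was -0.59. These references also differed in tissue, and the part of that in the ratios was not tested.

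Nefm was 71.1 CPM against 174 CPM at 3 days and 95.9 against 289 CPM at 28 days, log2 ratios of -1.29 and -1.59. Ina was 63.0 against 233 CPM at 3 days and 112 against 290 CPM at 28 days, log2 ratios of -1.89 and -1.37. About the fitted axis the 3-day ratios were -1.50 for Nefm and -1.68 for Ina. All 4 neurofilament genes were thus more than 2-fold lower at both times and about both axes, and their ratios to the mirror lay among the lowest 5.17% of all genes at 3 days and the lowest 2.27% at 28 days.

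Tubb3 behaved differently at 3 days. It was 274 CPM (260 to 288) in the zone and 327 CPM (314 to 340) in the mirror, which gave a log2 ratio of -0.25 (-0.35 to -0.16), or -0.11 about the fitted axis. The 28-day section had 190 and 431 CPM (log2 ratio -1.18, interval -1.27 to -1.09). Over the whole zone the neuronal beta-tubulin transcript was thus close to the opposite side in the early section and 2.27-fold lower in the late one. The early value differed with depth: deeper than 250 µm inside the zone Tubb3 was at -0.73 (-0.97 to -0.50), and in the outer 250 µm at -0.15 (-0.25 to -0.05). Mapt was split likewise, at -0.44 (-0.69 to -0.19) deep and -0.04 (-0.15 to 0.08) in the outer part, an interval across 0. Nefl, Ina and Stmn2 were instead lower in the outer part.

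Map2, the dendritic marker, was 273 against 480 CPM at 3 days and 249 against 431 CPM at 28 days, log2 ratios of -0.81 and -0.79 whose intervals overlapped. About the fitted axis it was at -1.05 (-1.14 to -0.96) at 3 days and -0.77 (-0.85 to -0.68) at 28 days, which did not overlap. Mapt was nearest to the mirror: 246 against 265 CPM at 3 days (log2 ratio -0.11, interval -0.21 to -0.01) and 244 against 311 CPM at 28 days (log2 ratio -0.35, interval -0.44 to -0.27). With the fitted axis Mapt was at -0.34 (-0.44 to -0.23) at 3 days, below Tubb3. Tau was the only one of the 8 within 1.5-fold of the mirror in both sections. Stmn2 was 207 against 435 CPM and 170 against 341 CPM, with log2 ratios of -1.07 and -1.003 that lay just past 2-fold. Its ratios were -0.59 (-0.70 to -0.48) and -1.03 (-1.12 to -0.93) about the fitted axis, which did not overlap.

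The zone was also shallower than the mirror. Its mean depth was 616 UMIs a bin at 3 days, where the mirror had 929, and 528 at 28 days, where the mirror had 634. Counted per bin in place of as CPM, all 8 ratios were lower, with Tubb3 at -0.85 and Mapt at -0.70 at 3 days and at -1.44 and -0.62 at 28 days. On this scale Mapt was the member nearest to its mirror in both sections.

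Between the 2 sections the log2 ratios rose by 0.63 for Nefl, 0.56 for Nefh and 0.51 for Ina, and were lower at 28 days by 0.93 for Tubb3, 0.30 for Nefm and 0.24 for Mapt. Intervals did not overlap for these 6 genes about the dividing line. About the fitted axis they overlapped for Nefm, Nefh and Mapt, and by a narrow margin for Ina. The difference for Nefh turned to -0.16 there, that for Nefm turned positive under 3 of the 12 alternative settings, and that for Mapt was 0.08 when counted per bin. The Stmn2 difference was 0.07 about the line, with overlapping intervals, and -0.44 about the fitted axis. Those of Tubb3, Nefl and Ina kept their sign under all 12. These are values of 2 mice with zones of different place and size.

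The zone also differed from the mirror in its cells. Lists of marker genes gave log2 ratios of 2.84 at 3 days and 5.00 at 28 days for phagocytes, which the zone was drawn from, 0.77 and 1.87 for astrocytes, and 2.01 and 0.58 for endothelium. Oligodendrocyte markers were at 1.32 at 3 days and 0.00 at 28 days, and parvalbumin neuron markers at -2.53 and -1.77. That last list includes Vamp1, the gene most like Nefh on the opposite side (r = 0.67). Excitatory neuron markers were at -1.86 and -1.25, and inhibitory neuron markers at -0.39 and -1.55. The part of these shifts in the members' values was not tested.

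To set the members against neuronal transcripts in general, each was divided by the summed UMIs of the 10 pan-neuronal genes. This sum had a log2 ratio of -1.52 at 3 days, with single genes from -2.10 (Vsnl1) to -0.88 (Eno2), and of -1.23 at 28 days, from -1.47 (Vsnl1) to -1.06 (Uchl1). Per 1000 pan-neuronal UMIs, Tubb3 stood at 70.2 in the zone and 29.3 in the mirror in the 3-day section, a difference of 1.26 on the log2 scale. In the 28-day section it stood at 40.5 and 39.1 (0.05, interval -0.04 to 0.14).

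Mapt was above the pan-neuronal genes in both sections, by 1.41 and 0.88, as were Map2, by 0.70 and 0.44, and Stmn2, by 0.44 and 0.23. Nefh was below them by -0.68 and -0.40, Nefl by -0.51 and -0.16, and Ina by -0.37 and -0.14. Nefm was above at 3 days (0.22) and below at 28 days (-0.36). Over tiles of the zone Mapt followed oligodendrocyte and not neuron markers, as given below, so its ratio here need not be one of neurons. Nefh was lowest and Mapt highest in both sections about the dividing line, while Tubb3 moved from next to highest to the lowest of the microtubule genes. About the fitted axis the 3-day values were -0.42 for Nefl, -0.22 for Ina, -0.08 for Nefh, -0.05 for Nefm, 1.12 for Mapt and 1.35 for Tubb3, so that Nefl was lowest and Tubb3 highest. That comparison was added after the first values were seen.

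The choice of reference moved the 3-day values. With Snap25 and Syt1 alone, which fell more than the list, Nefl was at -0.02, Nefh at -0.19 and Ina at 0.12 at 3 days. Nefm was at 0.71 with this reference, Tubb3 at 1.75 and Mapt at 1.89. At 28 days the same reference gave -0.06, -0.30 and -0.05 for Nefl, Nefh and Ina, and -0.26 for Nefm. At 3 days the place of the neurofilament genes beside other neuronal transcripts thus depended on the reference and on the axis.

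White matter tiles of the lesion zone gave the widest split between the genes. At 3 days Nefl was 32.2 CPM in such tiles of the zone and 418 CPM in white matter of the paired columns of the opposite side. The log2 ratio was -3.67 (-4.31 to -3.14) for Nefl, -3.00 for Nefm, -3.62 for Nefh and -2.22 for Ina. In the same tiles Tubb3 was at 0.18 (-0.07 to 0.42), Mapt at -0.24 (-0.45 to -0.03) and the pan-neuronal genes at -1.54. At 28 days the neurofilament genes were between -1.06 and -0.61 there, and Tubb3 was at -1.20 (-1.51 to -0.90). On the CPM scale, Tubb3 in white matter tiles of the zone was thus level with the opposite side in the early section and well below it in the late one. These tiles were named from myelin genes, which injury may change too.

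Within the zone, over tiles of 8 by 8 bins (135 at 3 days, 225 at 28 days), most members followed the neuron markers Snap25, Syt1 and Rbfox3. Pearson's r with their sum was between 0.48 and 0.72 at 3 days and between 0.45 and 0.75 at 28 days for Nefl, Nefm, Nefh, Ina, Map2 and Stmn2. Mapt did not follow them, with r of -0.13 and -0.07, and followed oligodendrocyte markers, with r of 0.56 and 0.42. Tubb3 had an r of 0.22 with neuron markers at 3 days and 0.54 at 28 days. The tiles share a library and the total UMI count they are scaled by.

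The 3 genes most like Tubb3 within the zone at 3 days, picked after its values were seen, were Tspan7 (r = 0.44), Ank3 (0.43) and Olfm1 (0.42), all weak. For Mapt they were Sez6l2 (0.69), Aatk (0.68) and Tubb4a (0.68), of which Tubb4a encodes a beta-tubulin abundant in myelinating oligodendrocytes. At 28 days Nefm was nearest to Nefl and Nefh within the zone, with r of 0.68 for each.

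Shares of single bins with a UMI were read after every bin was thinned to 300 UMIs. At 3 days Nefl was seen in 3.30% (2.89 to 3.74) of 7037 zone bins and 13.3% of 6429 mirror bins, with 1572 and 1523 shallower bins left out. Tubb3 was seen in 7.45% against 9.18%, and Mapt in 7.30% (6.71 to 7.94) against 7.53% (6.90 to 8.20), intervals that overlapped. At 28 days Nefl was seen in 6.73% against 16.9%, Tubb3 in 5.40% against 11.8% and Mapt in 7.04% against 8.58%. There 4670 of 14331 zone bins and 3249 of 12415 mirror bins were too shallow and left out. Without thinning the zone was shallower and the gaps wider, with Mapt at 13.2% against 19.9% at 3 days. Nefl transcripts thus reached far fewer bins of the zone, while Mapt shares overlapped with the mirror at 3 days after thinning and were below it at 28 days. The share of a non-expressing cell type was not read, since a bin can hold several cells.

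Distance from the zone border was read in bands, each against its own reflection. At 3 days the fall reached past the border. In the first 250 µm outside the zone Nefh was at -1.85 (-1.99 to -1.70), Nefl at -1.26, Nefm at -1.18 and Ina at -1.06, and the pan-neuronal genes at -0.80. Over the 12 alternative settings these values came as near to 0 as -0.42 for Nefh, -0.57 for Nefl, -0.42 for Nefm and -0.41 for Ina. In that band Tubb3 was at -0.64, Stmn2 at -0.54, Mapt at -0.34 and Map2 at -0.27. Map2 ranged from -0.95 to 0.19 over the alternatives, so its gap to the neurofilament genes depended on the setting, and Tubb3 from -0.73 to -0.12.

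From 250 to 500 µm Nefh was at -0.68 and Nefl at -0.62, while Map2 was above its mirror at 0.24 (0.14 to 0.33). From 500 to 1000 µm Nefh was at -0.71 (-0.82 to -0.59), Nefm at -0.47 (-0.58 to -0.36) and Nefl at -0.43, where the pan-neuronal genes were at -0.17. Against the whole opposite side Nefh was above it at 0.53 and Nefm at 0.11 in that band. From 1000 to 2000 µm the 8 genes lay between -0.08 and 0.13, so that no member was far from its mirror there. Beyond 2000 µm Nefm was at 0.74 and the others were between -0.12 and 0.22. The gradient ran over the asymmetric 3-day reference. In the first 250 µm inhibitory neuron markers were at 0.91, excitatory at -1.01 and parvalbumin at -1.07. From 500 to 1000 µm they were at 1.29, -0.20 and 0.48, so these bands also differed from their mirrors in cells. The part of that difference was not tested. Measured against the whole opposite side in place of the mirror, the median of the first 250 µm was -0.50 in place of -0.85.

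At 28 days all 8 genes were lower deep inside the zone than in its outer 250 µm. Deeper than 250 µm the 4 neurofilament genes lay together, from -2.31 for Nefl and Nefm to -2.21 for Nefh, with Tubb3 at -1.98, Stmn2 at -1.54, Map2 at -1.31 and Mapt at -0.55. In the outer 250 µm of the zone the neurofilament genes were between -1.15 and -0.90. Pan-neuronal genes went from -2.09 to -0.90 over the same step. In the first 250 µm outside, Nefh was at -0.89, Nefl and Nefm at -0.58 and Map2 at -0.10, and over the alternatives Nefh came as near to 0 as -0.49, Nefl as -0.30 and Nefm as -0.23.

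All 4 neurofilament genes were below their mirror in every band outside the zone at 28 days on the CPM scale, each with an interval below 0. Injured-side bins without a mirror bin stayed in these ratios. From the nearest band outward, 81.5%, 75.1%, 69.8% and 67.9% of bins had a mirror bin. The band from 1000 to 2000 µm was not read under the alternative settings. Counted per bin, Nefl was at 0.08 and Ina at 0.06 from 500 to 1000 µm. From 500 to 1000 µm at 28 days Nefh was at -1.16 (-1.33 to -0.98) and Nefm at -0.71 (-0.85 to -0.57), where the pan-neuronal genes were at 0.27, Map2 at 0.30, Nefl at -0.12 and Ina at -0.14. From 1000 to 2000 µm the order was another, with Nefm at -1.08 (-1.22 to -0.95), Nefl at -0.52 (-0.60 to -0.45), Nefh at -0.23 (-0.43 to -0.02) and Ina at -0.12. In that band excitatory neuron markers were at 1.02, inhibitory neuron markers at -0.74 and oligodendrocyte markers at -0.56, so its tissue differed between sides. Nefh and Nefm were below 0 from 500 to 1000 µm under all 12 alternative settings, Nefh from -1.35 to -0.57 and Nefm from -1.14 to -0.51. Parvalbumin neuron markers were at -0.72 and oligodendrocyte markers at -0.89 there, while excitatory neuron markers were at 1.78, so the 2 sides also differed in tissue at this distance. The part of that difference was not tested.

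**Figure D4:**
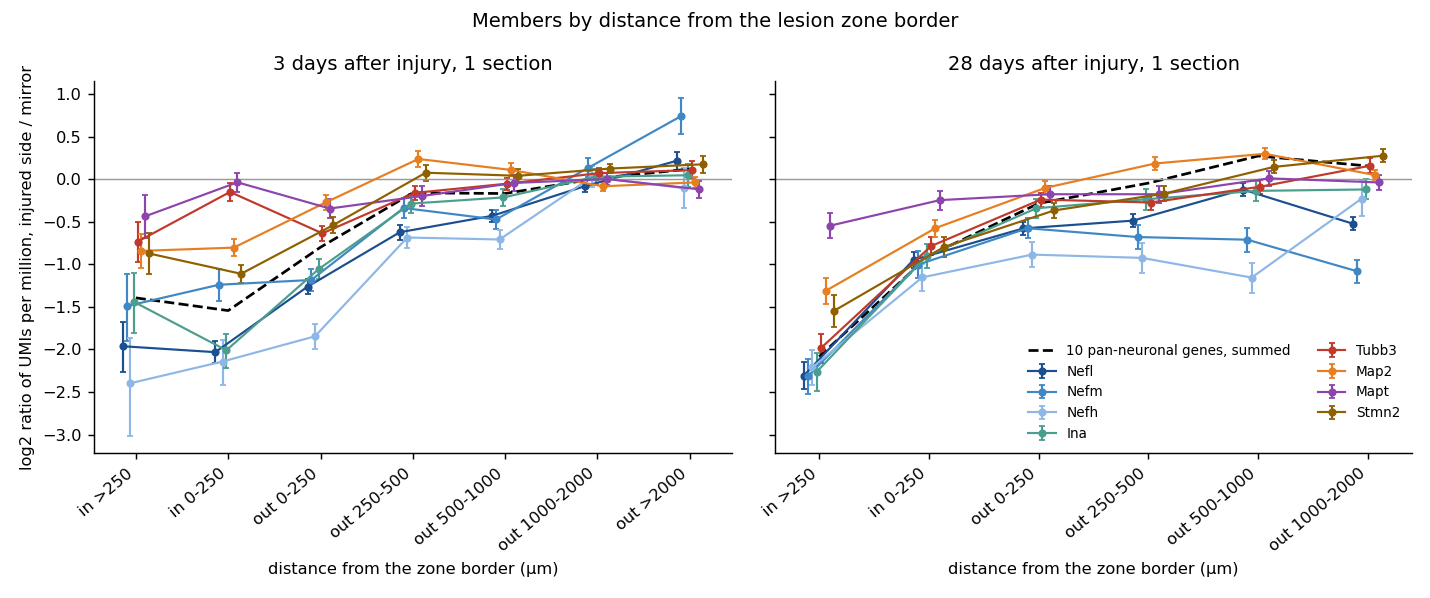
Log2 ratio of CPM, injured side over its reflection, for the 8 genes and for 10 summed pan-neuronal genes (dashed), by distance from the zone border in µm at 3 days (left) and 28 days (right); bars are 95% counting intervals of 1 section. At 3 days all lines meet near 0 from 1000 to 2000 µm, and at 28 days the lines of all 4 neurofilament genes lie below 0 outside the zone on this CPM scale, Nefm down to -1.08. At 28 days 67.9% of the bins from 1000 to 2000 µm had a mirror bin.

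Regions outside the zone were then compared between sides, matching tiles by markers in place of position. In the thalamus, which relays to the injured cortex, the larger neurofilament subunits were lower on the injured side. At 3 days Nefh was 154 CPM on the injured side, with a log2 ratio of -1.31 (-1.42 to -1.20), and Nefm was 139 CPM, with a ratio of -1.15 (-1.27 to -1.04). At 28 days Nefh was 170 CPM (log2 ratio -0.94, -1.09 to -0.81) and Nefm 134 CPM (log2 ratio -1.02, -1.18 to -0.87).

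Other neuronal transcripts of the same tiles were close to the opposite side or above it. The pan-neuronal genes were at -0.06 at 3 days and -0.08 at 28 days, and Tubb3 was at 0.03 and -0.09. Map2 was higher on the injured side, at 0.38 and 0.31, and so was Stmn2, at 0.50 and 0.21. Nefl and Ina lay between, at -0.57 and -0.44 at 3 days and at -0.42 and -0.40 at 28 days.

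The sides differed in thalamic markers, above all at 3 days. Prkcd, a marker of relay nuclei, was at -2.27 on the injured side at 3 days and at -0.21 at 28 days. Only 2.77% of injured-side thalamic bins at 3 days lay in tiles above the opposite side's median Prkcd level, against 42.1% at 28 days. Other nuclei in the plane of the section, loss of relay tissue and a lower level of the marker after injury cannot be told apart here. Among tiles at or below that median the 3-day ratios were -0.62 for Nefh and -0.50 for Nefm, and among the 112 bins above it they were -0.57 (-1.03 to -0.17) and -0.25 (-0.71 to 0.15). Map2 was at 0.10 (0.02 to 0.18) in the lower tiles and 0.38 (-0.07 to 0.78) in the upper, and Stmn2 at 0.33 and 0.36. On the opposite side the lower tiles held more Map2 than the upper (456 against 289 CPM) and less Nefh (228 against 537 CPM). Over all thalamic tiles at 3 days Gbx2, a marker of midline nuclei, was at 0.89.

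At 28 days the difference held at both Prkcd levels. Nefh was at -0.69 and Nefm at -0.79 in Prkcd-high tiles, where Prkcd itself was at 0.13 and Map2 at 0.08. In the other tiles Nefh was at -1.04 and Nefm at -1.05, and Map2 at 0.35. The strata were not matched on Prkcd itself, which was at -0.42 in those other tiles at 28 days and, at 3 days, at -0.82 in the lower and -0.51 in the upper stratum. Phagocyte genes were at 114 CPM in the injured-side thalamus outside the zone and at 52.2 CPM on the opposite side at 28 days. This stratification was added after the first values were seen. The midline nucleus marker Gbx2 was at 0.76 and 0.82 in the 2 strata, so the tiles of the 2 sides still differed in a thalamic marker.

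Layer 5 outside the zone differed between sections. At 28 days Nefh was at -1.14 (-1.36 to -0.92), Nefm at -0.70 and Nefl at -0.46 on the injured side, with the pan-neuronal genes at -0.12 and Tubb3 at -0.17. At 3 days Nefh was at 0.07 (-0.08 to 0.22), Nefm at -0.13 and Nefl at -0.24, with the pan-neuronal genes at -0.27. With a stricter region score of 1.5 both Nefh and Nefm were at -0.25 at 3 days. The gap between the sections was not tested. The 28-day comparison set 1617 injured-side bins against 5316 on the opposite side, and cortical areas were not matched.

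Tiles of the hypothalamus list, far ventral to the impact, were close on both sides. The 8 genes lay between -0.08 and 0.22 at 3 days and between -0.22 and 0.08 at 28 days. The widest of these were both Nefm, at 0.22 at 3 days and -0.22 at 28 days.

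**Figure D5:**
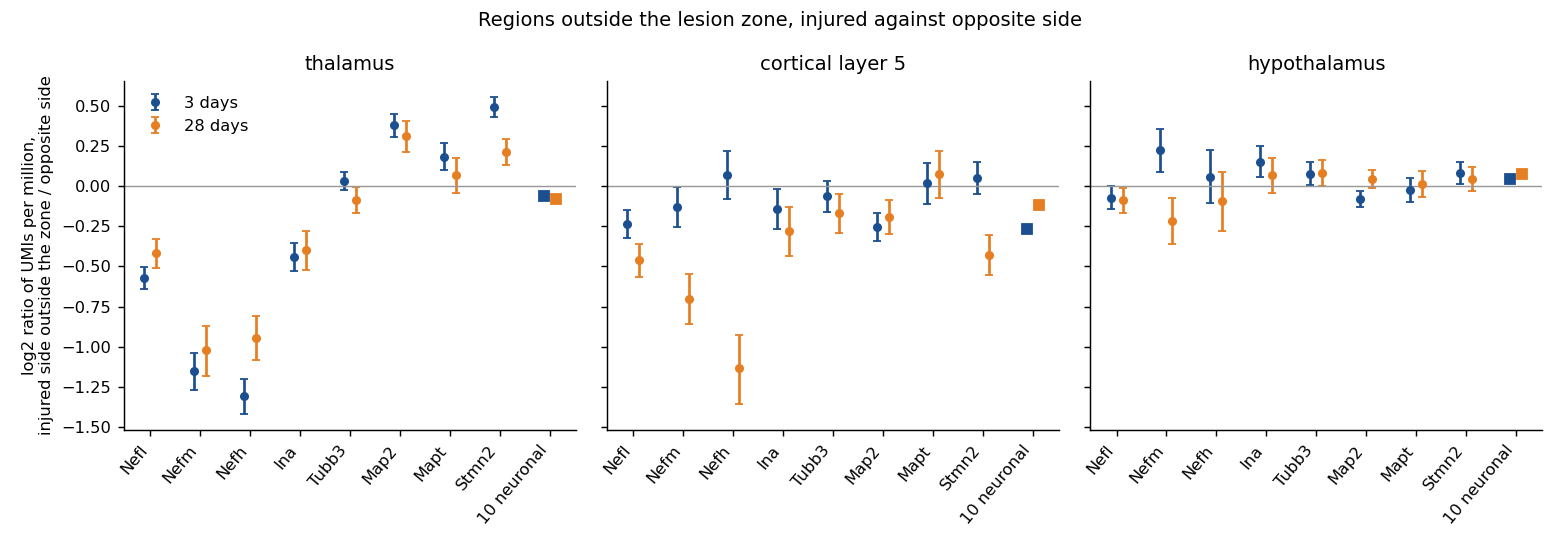
Log2 ratio of CPM in the thalamus, cortical layer 5 and hypothalamus-list tiles, injured side outside the lesion zone over paired columns of the opposite side, at 3 days (blue) and 28 days (orange); circles are the 8 genes with 95% counting intervals and squares the 10 summed pan-neuronal genes. Nefm and Nefh were lowest in the thalamus at both times and in layer 5 at 28 days, and all values were near 0 in the hypothalamus list.

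Over whole sides, with paired columns, the falls were diluted. The median over the 8 genes was -0.22 at 3 days and -0.23 at 28 days, from -0.69 to -0.03 and from -0.81 to -0.03. With all columns of the opposite side the medians were -0.089 and -0.27. Nefh, lowest at 3 days with paired columns, was then at -0.091. The zone held 7.42% of the members' UMIs of the injured side at 3 days and 12.3% at 28 days. The pan-neuronal genes were at -0.35 and -0.43 on this scale.

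Each gene's pattern was then set against 8772 other genes over tiles of 8 by 8 bins of the opposite side, 1273 at 3 days and 836 at 28 days. The likeness is the mean of the 2 sections' Pearson r of log2(CPM + 10). Among the genes most like Nefl were Eef1a2 (0.77), a translation factor of neurons and muscle, and Thy1 (0.75). Nefm was most like Nefl (0.71), the sodium channel Scn1a (0.69) and Cplx1 (0.69), a regulator of vesicle release.

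Nefh was most like Vamp1 (0.67), a vesicle SNARE, Nrip3 (0.63) and Cplx1 (0.62). Snrpn (0.77) and Snap25 (0.75) were among the genes nearest to Ina, and Tubb3 was nearest to Snrpn (0.69), Uchl1 (0.69) and Map1b (0.68). Map2 was nearest to Rtn1 (0.68), Ptprn (0.68) and Arf3 (0.66), and Stmn2 to Ywhag (0.79), Syp (0.77) and Sncb (0.75). Mapt was nearest to Sez6l2 (0.61), Tubb4a (0.57) and Syt11 (0.56). Mapt thus stood apart from the other members, with r of 0.26 or less to each of them, while Nefl, Nefm, Nefh and Ina had r of 0.51 to 0.71 with each other. Tiles share depth and cell content, so these values describe place only.

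The remainder of the cytoskeleton was read from a list of 41 genes, of which 40 were on the probe list. At 3 days their median log2 ratio in the zone was -0.38, with 6 of 40 genes more than 2-fold lower and 4 more than 2-fold higher, beside 8.27% and 16.8% of all genes. At 28 days the median was -0.51, with 7 of 39 lower and 1 higher, beside 7.0% and 16.2%.

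Among tubulins, Tuba4a, an alpha-tubulin of mature neurons, was lowest in the list at 3 days at -1.83 and stood at -1.43 at 28 days. Tubb6, a beta-tubulin found widely outside neurons, was highest, at 2.94 and 3.79, the latter from 99 UMIs in the zone and 7 in the mirror. Tubb2b, typical of immature neurons and glia, was at 1.43 and 0.76.

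Among microtubule-binding genes Map1b was at -1.36 and -1.17, and the stathmin Stmn3 at -1.39 and -1.28. Map1a reached -1.04 at 28 days, and Mapre3, which binds growing microtubule ends, was at -1.06 at 3 days. Cdk5r1, the activator of a kinase that phosphorylates tau and neurofilaments, was at -1.22 in both sections.

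The kinesin motors that carry axonal cargo, Kif5a and Kif5c, were at -0.26 and -0.64 at 3 days and at -1.53 and -1.24 at 28 days, so that both passed 2-fold in the late section alone. Prph, the intermediate filament peripherin of peripheral and injured neurons, was at 1.76 (0.69 to 3.02) at 3 days, from 25 UMIs in the zone and 10 in the mirror, and had too few UMIs for a value at 28 days. Capn2, a calcium-dependent protease that cuts spectrin and neurofilaments, was at 1.23 and 0.92.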

How the data were processed

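Visium HD sections of 2 mouse brains, 1 taken 3 days and 1 taken 28 days after CCI, were analysed. The authors made the deposited UMI count matrices, whole-number counts of each gene in squares of 16 µm, by running Space Ranger (version 4.0.1 per the file headers) and the mouse probe set 2.0. The submitters' processing notes name mm10. No gene was normalised before deposit.

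Bins with fewer than 100 UMIs (1.93% and 2.15%) were left out. Sides followed the column rule, groups the labels. Counts were summed over areas and divided by the area's total (CPM), and log2 ratios were taken after adding 0.5 UMIs to each sum. Levels carry exact Poisson intervals, ratios exact conditional binomial (Clopper-Pearson) intervals and shares Clopper-Pearson intervals, all at 95% and for counting error only. With 1 section per time point no test was run. The background was every gene that reached 20 UMIs in the zone and mirror together, and 2-fold was the call. A lesion patch had at least 400 bins. Region tiles of 4 by 4 bins took the marker list with the highest z score, if at least 1; tiles of the lists for CA1, the dentate gyrus, the habenula and the choroid plexus were not described, a choice made after the tiles were seen. Likeness used genes with a mean of at least 1 UMI per tile. Total depth was 120615873 UMIs at 3 days and 82422389 at 28 days. The 2 libraries shared 84781 bin positions, which are array addresses and not cells.

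The members, lists and rules were chosen with earlier results of these data known. Named were all 8 members, cytoskeleton genes past 2-fold in either section, the 3 most alike genes per member and the extremes of the pan-neuronal list, except a few genes that are not reported here. Alternatives changed the scale (UMIs per bin, TMM from edgeR 4.0.16 in R 4.3.3), bin filter, zone threshold and patches, dividing line, reference area, pseudocount, tile size, region score, reference list, thinning and gene filter. The code for ratios was tested on simulated data. Python 3.11.15 was used with numpy 2.4.6 and scipy 1.17.1.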

Additional observations from a re-analysis of the deposited data

Results flagged for a closer look

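In 4 cases a gene was above its reference in 1 section and below it in the other, with both counting intervals clear of 0. These differences compare 1 mouse with 1 mouse and were not tested. Nefm from 1000 to 2000 µm outside the zone was at 0.13 at 3 days and -1.08 at 28 days, a difference of -1.22. Only 67.9% of the 28-day bins of that band had a mirror bin. Nefl in layer 6 tiles outside the zone was at 0.20 and -0.54, a difference of -0.75, with only 203 injured-side bins at 28 days. Nefm in tiles of the hypothalamus list was at 0.22 and -0.22, a difference of -0.44, and the 3-day value turned to -0.23 with a stricter region score of 1.5. Nefl in white matter tiles outside the zone was at -0.46 and 0.91, a difference of 1.37, with 899 injured-side bins at 28 days.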

How the results depend on the processing

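All 8 members were below the mirror zone in both sections under all 12 alternatives, 192 values in all. This counts signs alone: Mapt at 3 days came as near to 0 as -0.029, beside a main interval of -0.21 to -0.01. The number past 2-fold ranged from 4 to 6 at 3 days and from 4 to 7 at 28 days. Among the 12, the largest patch alone repeated the main setting, since each zone was 1 patch. The medians, counts and shares that moved beyond the counting interval of the middle members, or by over 1.5 times for counts, were as follows. The causes were not tested. Per bin, the zone medians were -1.77 at 3 days and -1.54 at 28 days. At 28 days the zone median was -0.96 with the zone at the 95th percentile, -1.08 with paired bins only and -1.08 against the whole opposite side. In the first 250 µm outside, the medians were -0.33 (95th percentile) and -0.50 (whole opposite side) at 3 days, and -0.15 (95th percentile) and -0.22 (line 8 bins lower) at 28 days. From 500 to 1000 µm they were 0.21 against the whole opposite side at 3 days and 0.094 per bin at 28 days. The median relative to neuronal genes at 3 days was 0.82 with Snap25 and Syt1 alone. The number of members lower at 28 than at 3 days was 3, and became 1 per bin, 5 with the line 8 bins lower and 5 about the fitted axis. Of the 24 most alike genes, 11 were kept with tiles of 16 by 16 bins, and 4 at 3 days and 6 at 28 days within the zone, a setting added after seeing the data. With at least 200 UMIs per gene, 11.2% and 10.5% of genes were 2-fold higher at 3 and 28 days, and 0 genes of the cytoskeleton list at 28 days, since Tubb6 fell under that minimum.

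Single values whose counting interval lay clear of 0 changed sign as follows, and values with an interval across 0 are not listed. In the first 250 µm with the 95th percentile, Map2 was at 0.19 and Stmn2 at 0.049 at 3 days, and at 0.15 and 0.14 at 28 days. Tubb3 was at 0.0018 there against the whole opposite side at 28 days. From 500 to 1000 µm at 3 days, Nefm was at 0.12 and Ina at 0.054 with the line 8 bins lower, Nefm at 0.11, Nefh at 0.53, Ina at 0.39 and Map2 at -0.42 against the whole opposite side, and Map2 at -0.070 with the 95th percentile and -0.012 about the fitted axis. In that band at 28 days, Nefl was at 0.077, Ina at 0.061 and Tubb3 at 0.11 per bin, and Tubb3 at 0.0070 with the 95th percentile and 0.079 against the whole opposite side. With a region score of 1.5, Nefm at 3 days was at -0.23 and Nefl at 28 days at 0.051 in the hypothalamus list. Ina relative to Snap25 and Syt1 was at 0.12 at 3 days, and Nefm relative to the pan-neuronal genes at -0.045 about the fitted axis, a setting added after seeing the data. The 28-day minus 3-day difference was 0.030 per bin, 0.058 with the 95th percentile and 0.20 against the whole opposite side for Nefm, -0.16 about the fitted axis for Nefh and 0.083 per bin for Mapt. With all columns of the opposite side, the side ratios were 0.18 for Tubb3 and 0.014 for Stmn2 at 3 days and 0.026 for Map2 at 28 days. No paired analysis was possible because each time point had 1 section.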
